A study of Mus musculus with 11 samples.

Results

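The genes of the JAK, STAT5 and SOCS signalling chain that lies downstream of the interleukin-7 (IL-7) receptor were followed across 4 populations of kidney T cells. They are the 10 rows of the deposited count table named Jak1, Jak3, Stat5a, Stat5b, Cish, Socs1, Socs2, Socs3, Pim1 and Pim2, out of 46078 genes in the table, and all 10 passed the filter on low counts that left 16365 genes for testing. The T cells came from wild-type mice that had been immunised with recombinant mouse myeloperoxidase (MPO) and had then received low-dose sheep globulin against mouse basement membrane, which starts glomerulonephritis; kidneys were taken 21 days later. The populations were CD4+CD127-PD-1+ (n = 2), CD4+CD127+PD-1- (n = 3), CD8+CD127-PD-1+ (n = 3) and CD8+CD127+PD-1- cells (n = 3). Per the design text a further CD4+CD127-PD-1+ sample did not pass quality control. Each library holds cells pooled from 3 mice, so that p-values measure the spread between pools and not between animals. Every population carried the same immunisation and the same trigger, and kidneys without disease, or with a blocked IL-7 receptor, were not analysed here.

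CD127 is the alpha chain of the IL-7 receptor. When IL-7 binds, the alpha chain pairs with the common gamma chain; JAK1 is carried by the alpha chain and JAK3 by the gamma chain, and the kinases phosphorylate the STAT5 factors, which then enter the nucleus. STAT5 switches on Cish and members of the SOCS family, whose proteins dampen the same signal, and the Pim genes, which encode serine/threonine kinases of growth and survival. In T cells this chain is known for keeping resting naive and memory cells alive, and it is shared with IL-2, IL-15 and other cytokines, so its genes are not read-outs of IL-7 alone. PD-1, encoded by Pdcd1, is an inhibitory receptor of stimulated T cells.

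The promoters of Cish and Socs3 are shown because, of the 9 genes with promoter sequence in RefSeq (12 windows of 300 bases, each from 250 bases before to 50 bases after an annotated start, GRCm38.p6), these 2 hold the core STAT motif TTCNNNGAA, which reads the same on either strand. The motif lies in 8.3% of all 32851 promoter windows, and 0.457% of windows hold it at least 2 times. The Cish window (chr9:107296409-107296708, plus strand) holds it at bases 251 and 262, and the Socs3 window (chr11:117969317-117969616, minus strand) at base 97, counted from the window's 5′ end. Capitals mark the motif; a match describes the letters and does not show binding.
Cish: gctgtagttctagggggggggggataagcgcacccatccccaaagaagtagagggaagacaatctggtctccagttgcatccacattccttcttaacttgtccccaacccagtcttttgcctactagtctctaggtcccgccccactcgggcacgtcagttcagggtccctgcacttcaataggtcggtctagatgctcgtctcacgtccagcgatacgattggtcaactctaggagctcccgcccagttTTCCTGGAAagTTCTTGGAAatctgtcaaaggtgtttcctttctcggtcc
Socs3: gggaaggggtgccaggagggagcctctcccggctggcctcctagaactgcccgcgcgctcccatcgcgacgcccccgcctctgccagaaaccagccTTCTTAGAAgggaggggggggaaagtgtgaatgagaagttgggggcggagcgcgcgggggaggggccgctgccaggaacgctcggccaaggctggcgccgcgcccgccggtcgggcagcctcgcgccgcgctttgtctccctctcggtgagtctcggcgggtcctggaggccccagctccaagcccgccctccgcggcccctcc

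Library totals ran from 10572505 to 16057310 counts, and between 20514 and 21849 genes had at least 1 count per library. Levels are given in CPM, a gene's counts relative to its library's total, with totals adjusted by TMM factors (trimmed mean of M values). The sort showed in its own gene: Il7r stood at 21.4 ± 8.24 CPM for CD4+CD127-PD-1+ and 385 ± 60.6 CPM for CD4+CD127+PD-1- cells, and 16.1 ± 1.99 CPM for CD8+CD127-PD-1+ and 367 ± 47.8 CPM for CD8+CD127+PD-1- cells (SD). Pdcd1 ran opposite, with means of 19.2 CPM for CD4+CD127-PD-1+, 1.82 CPM for CD4+CD127+PD-1-, 22.4 CPM for CD8+CD127-PD-1+ and 2.14 CPM for CD8+CD127+PD-1- cells. All 14 genes of a pan-T list were detected in every library. Genes of other cells were present too. The 15 myeloid genes summed to 1245 to 2604 CPM for CD4+CD127-PD-1+ against 94.8 to 216 CPM for CD4+CD127+PD-1- pools, and to 1334 to 2582 CPM for CD8+CD127-PD-1+ against 115 to 231 CPM for CD8+CD127+PD-1- pools, with none of them at 0 in any library, and 14 of the 15 rose in each lineage. The 9 plasmacytoid dendritic cell genes ran the other way and summed to 137 to 484 CPM for CD4+CD127-PD-1+ against 783 to 1654 CPM for CD4+CD127+PD-1- pools, and to 245 to 315 CPM for CD8+CD127-PD-1+ against 624 to 1264 CPM for CD8+CD127+PD-1- pools; 6 fell in CD4 and 4 in CD8 cells. The 18 cell cycle genes summed to 1376 to 2429 CPM for CD4+CD127-PD-1+ against 495 to 663 CPM for CD4+CD127+PD-1- pools, and to 1780 to 2404 CPM for CD8+CD127-PD-1+ against 642 to 1839 CPM for CD8+CD127+PD-1- pools; 15 rose in CD4 and 5 in CD8 cells. Genes of B and plasma cells summed to 11.8 to 69.9 CPM for CD4+CD127-PD-1+ against 14.5 to 43.4 CPM for CD4+CD127+PD-1- pools, and to 90.2 to 217 CPM for CD8+CD127-PD-1+ against 15.2 to 53.2 CPM for CD8+CD127+PD-1- pools. Neutrophil genes summed to 23.8 to 34.3 CPM for CD4+CD127-PD-1+ against 3.46 to 5.49 CPM for CD4+CD127+PD-1- pools, and to 41.6 to 288 CPM for CD8+CD127-PD-1+ against 2.63 to 17.1 CPM for CD8+CD127+PD-1- pools. Kidney tubule genes, none of which was called, summed to 34.4 to 51.9 CPM for CD4+CD127-PD-1+ against 47.7 to 135 CPM for CD4+CD127+PD-1- pools, and to 15.3 to 61.3 CPM for CD8+CD127-PD-1+ against 11.6 to 258 CPM for CD8+CD127+PD-1- pools. Mitochondrial ribosomal RNA took 35.7% to 40.8% of counts in CD8+CD127-PD-1+ pools against 28.6% to 31.8% in CD8+CD127+PD-1- pools. The part of these differences in the values below was not tested.

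CD127-PD-1+ cells were set against CD127+PD-1- cells of the same lineage. In CD4 cells Jak1, Stat5b, Pim1 and Pim2 fell, and in CD8 cells Jak1, Stat5a, Stat5b and Pim2 fell; no gene of the 10 rose in either lineage (edgeR quasi-likelihood test, Benjamini-Hochberg adjusted over 16365 genes, threshold 0.05). Those are 4 of 10 genes lower in each lineage, where 4.87% of all tested genes were called lower and 6.81% higher in CD4 cells (11.7% in all), and 6.56% lower and 9.05% higher in CD8 cells (15.6% in all). Counting instead the genes whose pools did not overlap between the states, 6 of the 10 were lower in CD4 and 5 in CD8 cells and 0 were higher, where 19.4% of all tested genes were lower and 21.3% higher in CD4 cells (40.7% in all), and 16.4% lower and 18% higher in CD8 cells (34.4% in all). The median log2 fold change of the 10 was -0.57 in CD4 and -0.55 in CD8 cells, beside 0.02 and 0.01 over all tested genes. Between the lineages Socs2 was higher in CD4 than in CD8 cells in either state, and Cish and Pim1 in the CD127+PD-1- state. Jak1 and Pim2 were lower in CD4 than in CD8 CD127+PD-1- cells. Since the members were chosen with earlier results of these data known, these counts describe the genes and are no test of the group.

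**Figure D1:**
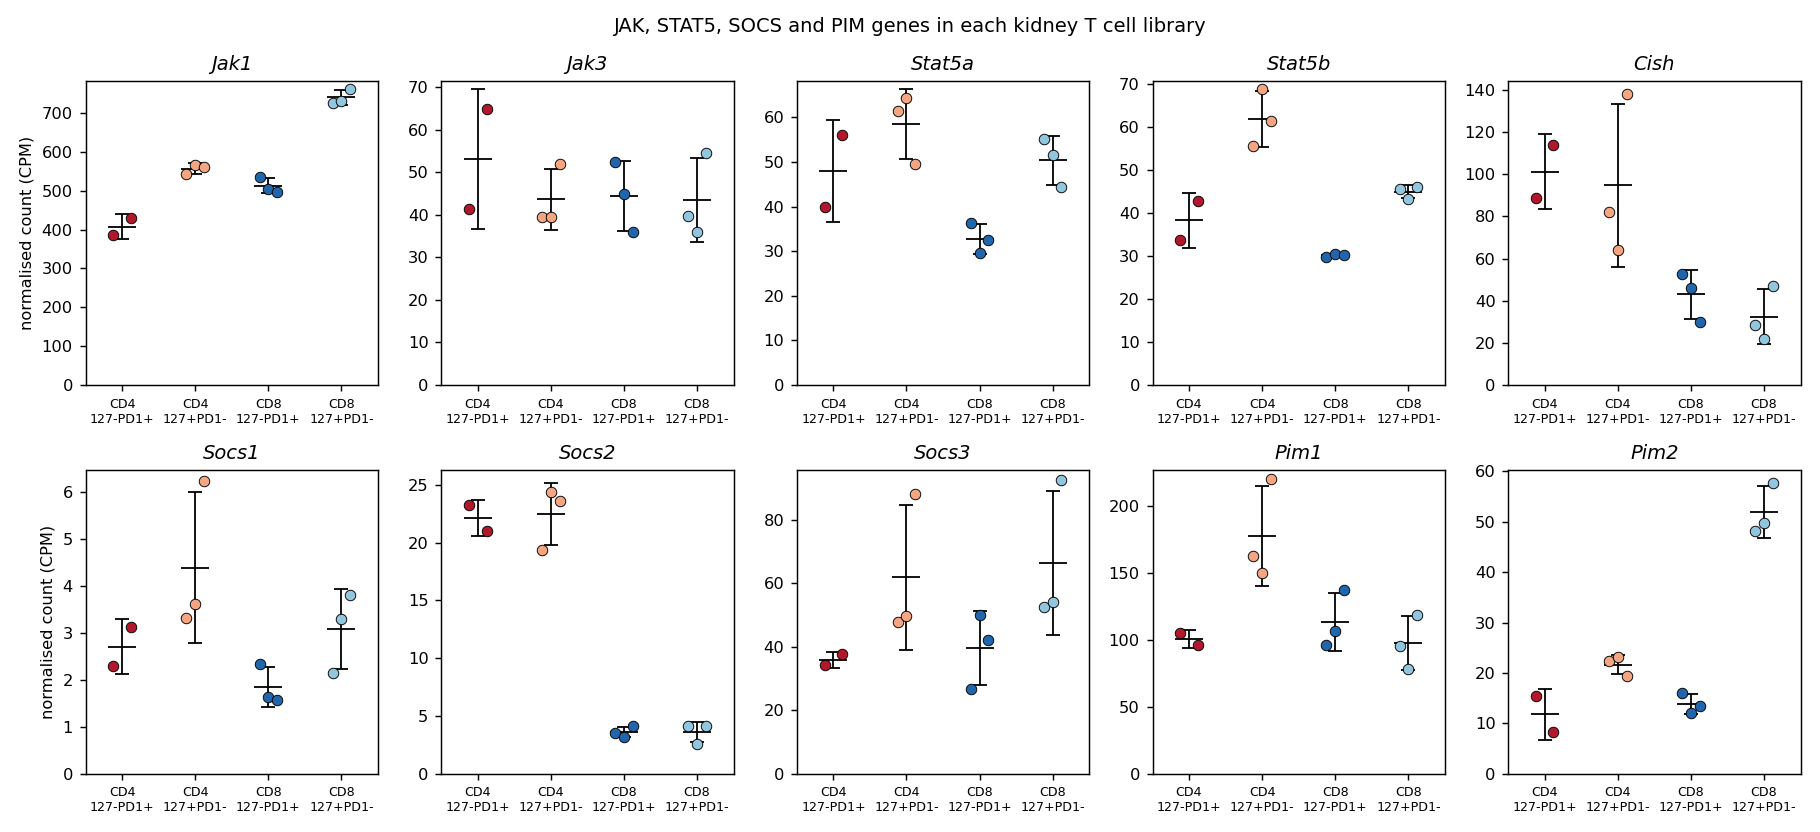
Normalised counts (CPM, y axis from 0) of the 10 genes in each library (points) of the 4 populations (x axis), with the mean and SD as bars. Jak1, Stat5b and Pim2 sit lower in the CD127-PD-1+ pools of each lineage, and Socs2 is near 22 CPM in CD4 and 3.6 CPM in CD8 populations whatever the state.

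Jak1 encodes the kinase of the receptor's alpha chain (chr4:101152367-101265282, GRCm38, as are all positions given). It measured 385 and 430 CPM for CD4+CD127-PD-1+ pools, against 542, 567 and 562 CPM for CD4+CD127+PD-1- pools. In CD8 cells it measured 534, 505 and 497 CPM for CD127-PD-1+ pools, against 725, 732 and 763 CPM for CD127+PD-1- pools. The libraries of the states did not overlap in either lineage, and the CD8 populations stood above the CD4 populations of the same state. The log2 fold change was -0.45 in CD4 cells (SE 0.09, adjusted p = 0.0105) and -0.53 in CD8 cells (SE 0.08, adjusted p = 0.00146), which are falls of 1.37-fold and 1.44-fold. In these bulk libraries fewer cells that express a gene cannot be told apart from less of its RNA per cell. Between lineages Jak1 was lower in CD4 than in CD8 cells among CD127+PD-1- cells (log2 difference -0.41, SE 0.08, adjusted p = 0.0150), and the difference was -0.33 among CD127-PD-1+ cells, where it was not called (adjusted p = 0.106; 0.0126 by DESeq2). The CD4 state call was lost on leaving out CD4+CD127-PD-1+ replicate 1, at an adjusted p of 0.0937, and the lineage call without CD4+CD127+PD-1- replicate 1 (0.0625) or CD8+CD127+PD-1- replicate 3 (0.0508), whereas the CD8 state call was kept without any single library.

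Jak3 (chr8:71676296-71690575), which encodes the kinase of the gamma chain, was not called in any comparison. It measured 41.4 and 64.8 CPM for CD4+CD127-PD-1+ pools, against 39.5, 39.5 and 51.9 CPM for CD4+CD127+PD-1- pools. The CD8 libraries gave 52.4, 44.8 and 35.9 CPM for CD127-PD-1+ pools, against 39.7, 35.9 and 54.6 CPM for CD127+PD-1- cells. All 4 groups overlapped, with log2 fold changes of 0.28 in CD4 cells (SE 0.24, adjusted p = 0.508) and 0.03 in CD8 cells (SE 0.22, adjusted p = 0.948). Jak3 shares 404 exonic bases with Insl3 on the same strand, a gene with 0.642 to 1.19 CPM in the group means. Its partner receptor chain Il2rg, the common gamma chain, stood at 259 ± 52.0 CPM for CD4+CD127-PD-1+ and 289 ± 31.4 CPM for CD4+CD127+PD-1- pools, and at 206 ± 3.20 CPM for CD8+CD127-PD-1+ and 235 ± 26.6 CPM for CD8+CD127+PD-1- pools (SD). It was not called in CD4 (adjusted p = 0.533) or CD8 cells (adjusted p = 0.353). Per kilobase of exon, Jak1 stood 5.90-fold above Jak3 on average in CD4+CD127-PD-1+ pools and 9.61-fold in CD4+CD127+PD-1- pools, and 8.72-fold in CD8+CD127-PD-1+ and 13.0-fold in CD8+CD127+PD-1- pools.

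Stat5b (chr11:100780731-100850724) encodes a member of the STAT5 pair that carries the signal to the nucleus. It measured 33.8 and 42.7 CPM for CD4+CD127-PD-1+ pools, against 55.6, 68.7 and 61.2 CPM for CD4+CD127+PD-1- pools. In CD8 cells it measured 29.7, 30.5 and 30.1 CPM for CD127-PD-1+ pools, against 45.6, 43.1 and 46.0 CPM for CD127+PD-1- pools. The states were apart in each lineage, with log2 fold changes of -0.69 in CD4 cells (SE 0.14, adjusted p = 0.00889) and -0.58 in CD8 cells (SE 0.12, adjusted p = 0.00857). On leaving out CD4+CD127-PD-1+ replicate 1 the CD4 call was lost (adjusted p = 0.0807), while the CD8 call was kept without any single library. Stat5b was 0.46 higher on the log2 scale in CD4 than in CD8 CD127+PD-1- cells with no overlap between libraries, but missed the threshold (SE 0.12, adjusted p = 0.0565; 0.0169 by DESeq2, 0.0476 with a stricter filter and 0.0410 on leaving out CD4+CD127-PD-1+ replicate 1).

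Stat5a, the neighbouring paralog of Stat5b on chromosome 11 (chr11:100859351-100885169), fell in CD8 cells. The CD8 libraries gave 36.4, 29.6 and 32.4 CPM for CD127-PD-1+ pools, against 55.2, 51.5 and 44.4 CPM for CD127+PD-1- cells, a log2 fold change of -0.62 (SE 0.16, adjusted p = 0.0225). In CD4 cells it measured 39.8 and 56.0 CPM for CD127-PD-1+ pools, against 61.5, 64.3 and 49.5 CPM for CD127+PD-1- pools; the groups overlapped (-0.29, SE 0.18, adjusted p = 0.350). The difference between the lineages' changes was 0.33 (SE 0.24, adjusted p = 0.978), so the changes of the lineages were not shown to differ. The CD8 call was lost on leaving out CD8+CD127-PD-1+ replicate 2 (adjusted p = 0.0858) or 3 (0.0735) and on leaving out CD8+CD127+PD-1- replicate 1 (0.0772) or 2 (0.0655). Of all 75-base windows in their transcripts, 5.12% of those of Stat5a and 6.99% of those of Stat5b are identical in the other gene, and 72 exonic bases of Stat5a lie opposite Stat3, which was more abundant (182 to 230 CPM in the group means). Per kilobase, Stat5a stood at 0.967 ± 0.0726 of Stat5b in CD4+CD127-PD-1+ and 0.738 ± 0.116 in CD4+CD127+PD-1- pools, and at 0.847 ± 0.0978 in CD8+CD127-PD-1+ and 0.872 ± 0.107 in CD8+CD127+PD-1- pools (SD).

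Cish (chr9:107296026-107302784) encodes CIS, a feedback inhibitor that STAT5 induces. Its libraries overlapped between the states: 88.7 and 114 CPM for CD4+CD127-PD-1+ pools, against 82.0, 63.9 and 138 CPM for CD4+CD127+PD-1- cells. The CD8 libraries gave 52.9, 46.0 and 30.1 CPM for CD127-PD-1+ pools, against 28.7, 21.8 and 46.9 CPM for CD127+PD-1- cells. The log2 fold changes were 0.10 in CD4 (SE 0.36, adjusted p = 0.903) and 0.40 in CD8 cells (SE 0.33, adjusted p = 0.456). The errors leave room for a change in either direction. CD4 cells stood above CD8 cells without overlap in either state, by 1.54 on the log2 scale among CD127+PD-1- cells (SE 0.33, adjusted p = 0.0212) and by 1.24 among CD127-PD-1+ cells, where it was not called (SE 0.35, adjusted p = 0.115; 0.0181 by DESeq2 and 0.00116 with no filter on low counts). The call among CD127+PD-1- cells was lost on leaving out CD4+CD127+PD-1- replicate 3, at an adjusted p of 0.0985, and on leaving out CD8+CD127+PD-1- replicate 1 (0.0819) or 2 (0.0739). The exons of Cish lie opposite 2 predicted genes, Gm17040 and Gm17041, which had 17 and 0 counts over all 11 libraries.

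Socs2 (chr10:95385362-95417180), a SOCS gene also known as a feedback gene of growth hormone signalling, differed between the lineages. It measured 23.3 and 21.02 CPM for CD4+CD127-PD-1+ and 19.4, 24.4 and 23.6 CPM for CD4+CD127+PD-1- pools. In CD8 cells it measured 3.51, 3.21 and 4.09 CPM for CD127-PD-1+ and 4.11, 2.57 and 4.16 CPM for CD127+PD-1- pools. Every CD4 library stood above every CD8 library. The log2 difference of CD4 over CD8 cells was 2.62 among CD127-PD-1+ cells (SE 0.22, adjusted p = 8.33e-05) and 2.63 among CD127+PD-1- cells (SE 0.21, adjusted p = 4.06e-05), which are 6.13-fold and 6.20-fold, and these calls were kept under every alternative run. Between the states the log2 fold change of Socs2 was -0.02 in CD4 cells (SE 0.21, adjusted p = 0.965) and -0.01 in CD8 cells (SE 0.21, adjusted p = 0.991).

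Socs3 (chr11:117966079-117970047), whose protein chiefly restrains the receptors that signal through gp130 (gene Il6st), was not called between the states in the main edgeR fit. With no filter on low counts it was called in CD4 (adjusted p = 0.0321) and CD8 cells (0.0126). A replicate block on title numbers gave a call in CD8 cells (0.0356). A replicate block on description numbers gave calls in CD4 (0.00890) and CD8 cells (0.00889). It measured 34.2 and 37.8 CPM for CD4+CD127-PD-1+ pools, against 47.8, 49.7 and 88.3 CPM for CD4+CD127+PD-1- pools. The CD8 libraries gave 26.9, 50.1 and 42.04 CPM for CD127-PD-1+ pools, against 52.7, 54.1 and 92.6 CPM for CD127+PD-1- cells. The libraries of the states did not overlap, as was true, in the lower direction, of 19.4% of all tested genes in CD4 and 16.4% in CD8 cells. The log2 fold changes were -0.78 in CD4 cells (SE 0.34, adjusted p = 0.169) and -0.74 in CD8 cells (SE 0.30, adjusted p = 0.116). Replicate 3 of each CD127+PD-1- population was far above the other 2. The tissue digestion stress genes, immediate early and heat shock genes that handling can induce, summed to 7495 to 8509 CPM for CD4+CD127-PD-1+ against 8665 to 10064 CPM for CD4+CD127+PD-1- pools. For CD8 cells the sums were 6789 to 7786 CPM for CD127-PD-1+ against 7210 to 7874 CPM for CD127+PD-1- pools, which overlapped. Replicate 3 had the highest sum of the CD4+CD127+PD-1- pools (10064 CPM) but the lowest of the CD8+CD127+PD-1- pools (7210 CPM). The part of these genes in the Socs3 values was not tested. Socs1 (chr16:10782240-10785536), which encodes a direct inhibitor of JAK kinases, was the least abundant of the 10 in CPM in each population, with 21 to 67 counts per library. It stood at 2.70 ± 0.586 CPM for CD4+CD127-PD-1+ against 4.39 ± 1.61 CPM for CD4+CD127+PD-1- cells, and at 1.85 ± 0.426 CPM for CD8+CD127-PD-1+ against 3.09 ± 0.848 CPM for CD8+CD127+PD-1- cells (SD). Its log2 fold changes of -0.69 in CD4 cells (SE 0.38, adjusted p = 0.282) and -0.74 in CD8 cells (SE 0.35, adjusted p = 0.181) were not called.

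Pim2, a survival kinase gene that cytokines switch on (chrX:7878262-7883432), had the largest state difference of the 10 in CD8 cells. It measured 16.1, 12.02 and 13.5 CPM for CD8+CD127-PD-1+ pools, against 48.2, 49.7 and 57.8 CPM for CD8+CD127+PD-1- pools. In CD4 cells it measured 15.4 and 8.24 CPM for CD127-PD-1+ pools, against 22.5, 23.1 and 19.4 CPM for CD127+PD-1- pools. The CD8+CD127+PD-1- population thus stood apart, and the other 3 populations lay between 8.24 and 23.1 CPM. The log2 fold change was -1.90 in CD8 cells (SE 0.21, adjusted p = 0.000214), a fall of 3.74-fold, and -0.88 in CD4 cells (SE 0.24, adjusted p = 0.0351). Among CD127+PD-1- cells Pim2 was lower in CD4 than in CD8 cells (log2 difference -1.26, SE 0.21, adjusted p = 0.00447), and among CD127-PD-1+ cells the difference was -0.23 (SE 0.24, adjusted p = 0.760). The state change was 1.03 less negative in CD4 than in CD8 cells, which did not pass the test (SE 0.31, unadjusted p = 0.00652, adjusted p = 0.703). The CD8 call and the lineage call were kept under every alternative run. The CD4 call was lost on leaving out CD4+CD127-PD-1+ replicate 2, where the log2 fold change was -0.49 (adjusted p = 0.216), without CD4+CD127+PD-1- replicate 1 (0.0891), 2 (0.0985) or 3 (0.0534), and with the CD8 libraries kept out of the model (0.0902).

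Pim1 (chr17:29490753-29496112), the related kinase gene, fell in CD4 cells. It measured 105 and 96.1 CPM for CD4+CD127-PD-1+ pools, against 163, 150 and 220 CPM for CD4+CD127+PD-1- pools. In CD8 cells it measured 95.8, 106 and 138 CPM for CD127-PD-1+ pools, against 95.6, 78.3 and 119 CPM for CD127+PD-1- pools. CD4+CD127+PD-1- cells thus stood above the other 3 populations, which overlapped. The log2 fold change was -0.82 in CD4 cells (SE 0.21, adjusted p = 0.0300) and 0.22 in CD8 cells (SE 0.19, adjusted p = 0.494). The difference between the lineages' changes was -1.03 (SE 0.28, unadjusted p = 0.00358) and missed the threshold over all genes (adjusted p = 0.631), except with no filter on low counts (adjusted p = 0.0402). Among CD127+PD-1- cells Pim1 was 0.86 higher on the log2 scale in CD4 than in CD8 cells (SE 0.19, adjusted p = 0.0233), and among CD127-PD-1+ cells it stood at -0.17 (SE 0.21, adjusted p = 0.818). The CD4 state call was lost on leaving out CD4+CD127-PD-1+ replicate 1 (adjusted p = 0.0980) or 2 (0.154) and on leaving out CD4+CD127+PD-1- replicate 1 (0.0540) or 3 (0.0897). The lineage call was lost on leaving out CD4+CD127+PD-1- replicate 1 (0.0583) or 3 (0.117) and on leaving out CD8+CD127+PD-1- replicate 1 (0.0791) or 2 (0.0816). A predicted gene, Gm26885, lies opposite 488 exonic bases of Pim1 and had 31 counts over all libraries.

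**Figure D2:**
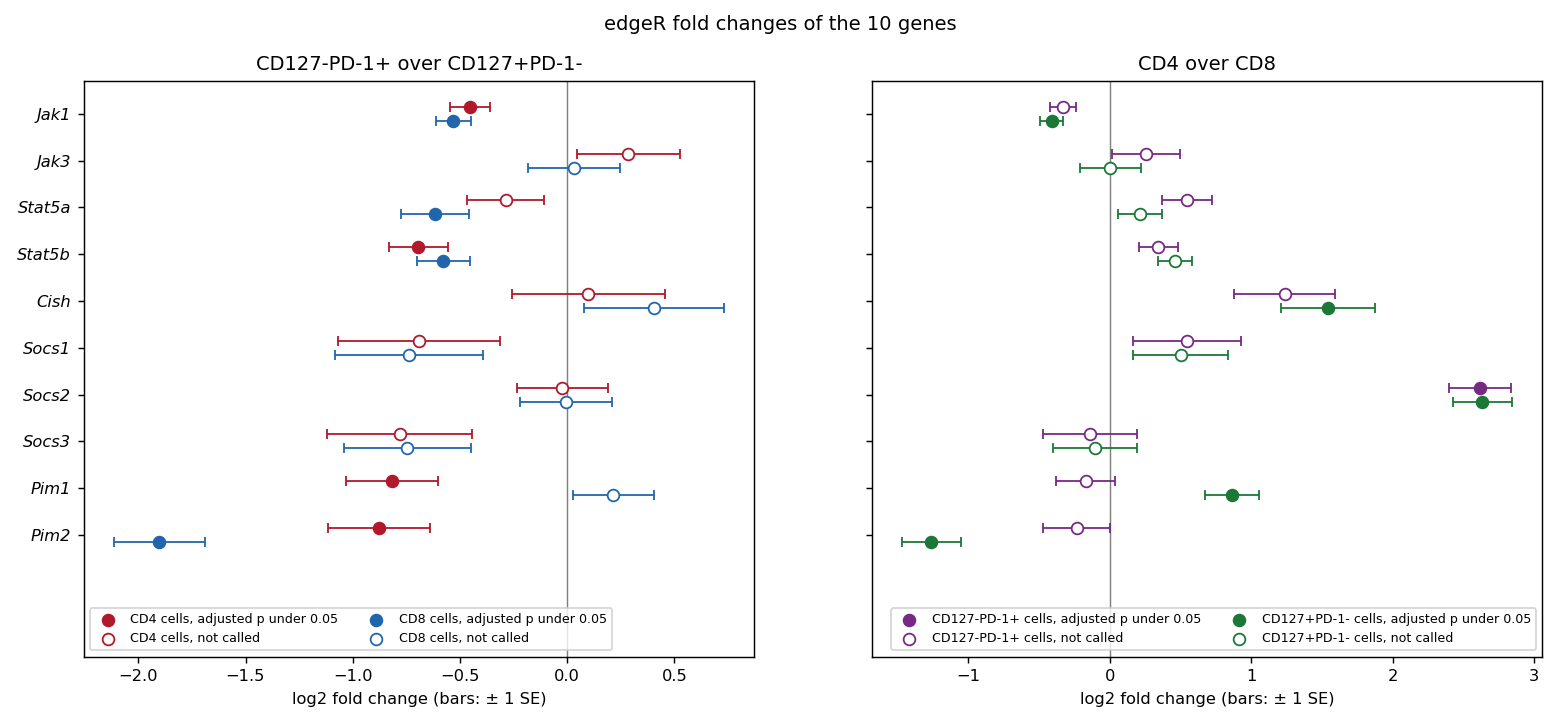
edgeR log2 fold changes (x axis, bars ± 1 SE) of the 10 genes (y axis), for CD127-PD-1+ over CD127+PD-1- cells on the left and CD4 over CD8 cells on the right; filled points have an adjusted p under 0.05. On the left the filled points all lie below 0, with Pim2 in CD8 cells farthest at -1.90; on the right Socs2 lies near 2.6 in either state.

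The lineage comparisons called fewer genes in the whole table. Among CD127-PD-1+ cells 1 of the 10 was called, Socs2, where 1.6% of all tested genes were called higher in CD4 than in CD8 cells and 0.843% lower (2.44% in all). The pools of the lineages did not overlap for 5 of the 10, 4 higher and 1 lower in CD4 cells, against 14.3% higher and 13.5% lower of all tested genes (27.8% in all). Among CD127+PD-1- cells Socs2, Cish and Pim1 were higher and Jak1 and Pim2 lower in CD4 than in CD8 cells, 3 and 2 of the 10, where 2.76% of all tested genes were called higher and 1.66% lower (4.42% in all). Here the pools did not overlap for 4 higher and 2 lower genes of the 10, against 11.9% higher and 10.9% lower of all tested genes (22.8% in all). In the state by lineage test 0 of the 10 and 1 of 16365 genes (0.00611%) passed by edgeR; 2 of the 10, Pim1 and Pim2, had an unadjusted p under 0.05, as did 897 of all tested genes. No gene was called lower there (0%). DESeq2 called 60 genes in that test and 0 of the 10. For the other 8 genes the difference between the lineages' changes ran from -0.31 to 0.33 on the log2 scale, with SE of 0.124 to 0.499.

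Set against each other per kilobase of exon (RPKM, from the same scaled counts and the union of annotated exons), Jak1 was the most abundant of the 10 and Pim1 the next in every population. Jak1 stood at 56.4 RPKM in CD4+CD127-PD-1+, 77.1 in CD4+CD127+PD-1-, 70.9 in CD8+CD127-PD-1+ and 102 RPKM in CD8+CD127+PD-1- cells, and no library of Pim1 reached that of Jak1 in the same population. The middle of the order changed with the population. Cish took rank 3 in CD4+CD127-PD-1+ cells at 15.8 RPKM and rank 8 in CD8+CD127+PD-1- cells at 5.06 RPKM, while Pim2 took rank 4 in CD8+CD127+PD-1- cells at 18.6 RPKM and rank 8 in either CD4 population. The lowest places went to Socs2 and Socs1, with Socs1 last at 0.929 RPKM in CD4+CD127-PD-1+ and 1.51 RPKM in CD4+CD127+PD-1- cells, and Socs2 last at 0.378 RPKM in CD8+CD127-PD-1+ and 0.379 RPKM in CD8+CD127+PD-1- cells. Of the 9 pairs of neighbours in the order, the libraries overlapped in 2 pairs in CD4+CD127-PD-1+, 5 in CD4+CD127+PD-1-, 5 in CD8+CD127-PD-1+ and 4 in CD8+CD127+PD-1- cells. Jak3, Stat5a and Stat5b had means between 4.60 and 11.2 RPKM in all 4 populations.

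**Figure D3:**
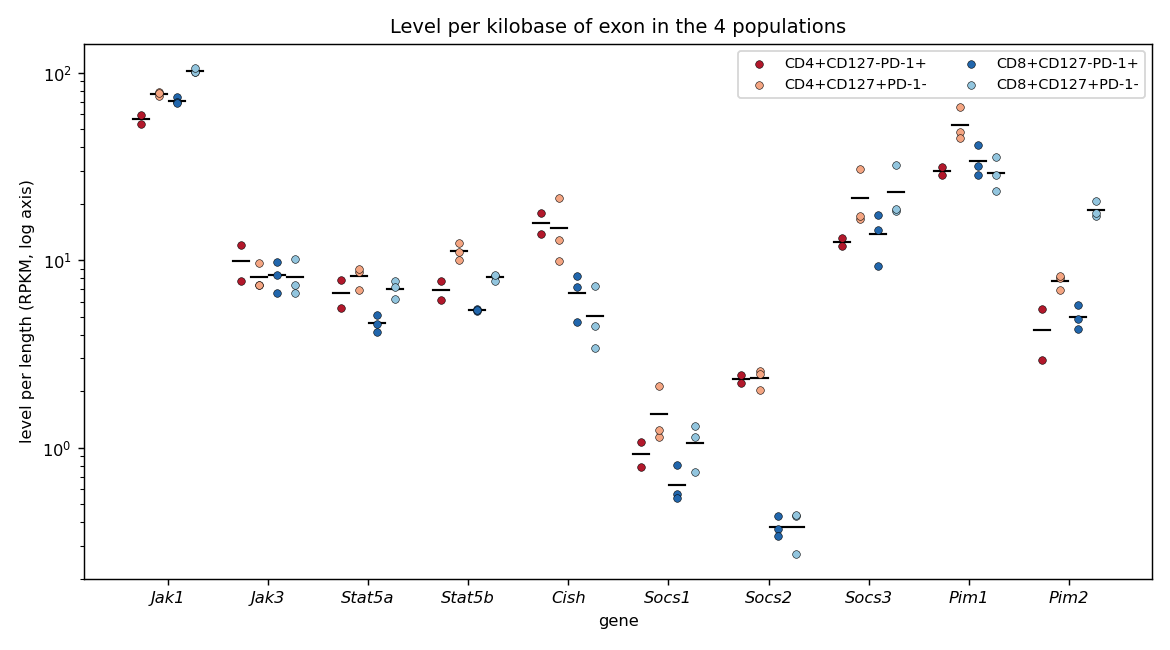
Level per kilobase of exon (RPKM, log axis) of the 10 genes (x axis) in each library (points; black bars are group means) of the 4 populations. Jak1 and Pim1 lie highest in each population, and Socs2 lies near 2.3 RPKM in CD4 and near 0.38 RPKM in CD8 cells.

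The other genes of the pathway were followed in 4 lists. Of 7 further JAK and STAT genes, whose median log2 fold change was 0.12 in CD4 and 0.10 in CD8 cells, none was called in CD4 cells, where Stat3, a factor of the IL-6 and IL-21 response and the most abundant of the 7, stood at 216 ± 24.0 CPM for CD127-PD-1+ and 230 ± 33.7 CPM for CD127+PD-1- cells (SD; log2 fold change -0.09, adjusted p = 0.787). In CD8 cells 1 of 7 rose, Stat2, a factor of the type I interferon response. Stat2 stood at 96.6 ± 19.1 CPM for CD127-PD-1+ against 61.2 ± 7.16 CPM for CD127+PD-1- cells (0.66, SE 0.17, adjusted p = 0.0207). Of all tested genes 11.7% were called in CD4 cells and 15.6% in CD8 cells (9.05% higher and 6.56% lower). Between lineages none of the 7 was called, with Stat3 at 0.20 among CD127-PD-1+ cells (adjusted p = 0.686) and 0.34 among CD127+PD-1- cells (adjusted p = 0.241). The call of Stat2 was lost on leaving out CD8+CD127-PD-1+ replicate 3 (adjusted p = 0.0901), and on leaving out CD8+CD127+PD-1- replicate 2 (0.0792) or 3 (0.0535).

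Of 16 other negative regulators and adaptors (SOCS, PIAS, phosphatase, Cbl and Sh2b3 genes), 1 rose and 1 fell in CD4 cells and none was called in CD8 cells, with median log2 fold changes of 0.10 and 0.13. The shares of all tested genes were 6.81% higher and 4.87% lower in CD4 cells, and 9.05% higher and 6.56% lower in CD8 cells. Ptpn11, which encodes the phosphatase SHP-2, rose by 0.94 in CD4+CD127-PD-1+ cells (SE 0.12, adjusted p = 0.000657). Pias2, a SUMO ligase gene of the family that restrains STAT factors, fell by 0.49 (SE 0.13, adjusted p = 0.0309), a call that was lost when any 1 of the 5 CD4 libraries was left out (adjusted p = 0.0582 to 0.142), with no filter on low counts (0.0666) and with the CD8 libraries kept out of the model (0.0610). The most abundant of these genes, Ptprc, which encodes CD45, was not called in CD8 cells (-0.08, adjusted p = 0.635) or between the lineages among CD127-PD-1+ (-0.30, adjusted p = 0.237) and CD127+PD-1- cells (-0.28, adjusted p = 0.134).

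Of 11 receptor chains that work through JAK1, JAK3 or STAT5, 2 rose and 3 fell, Il7r among them, in CD127-PD-1+ cells of each lineage. Over all tested genes 6.81% rose and 4.87% fell in CD4 cells, and 9.05% rose and 6.56% fell in CD8 cells. The median log2 fold change of the 11 was 0.05 in CD4 and 0.19 in CD8 cells. Il7r fell by 4.17 in CD4 cells (SE 0.26, adjusted p = 3.68e-05) and its log2 fold change was -4.51 in CD8 cells (SE 0.22, adjusted p = 2.72e-06), which the sort on CD127 fixes. Il4ra, the alpha chain of the IL-4 receptor that also carries JAK1, stood at 47.8 ± 1.76 CPM for CD127-PD-1+ against 96.6 ± 0.933 CPM for CD127+PD-1- CD4 cells (-1.02, SE 0.13, adjusted p = 0.000657) and at 52.4 ± 5.95 CPM for CD127-PD-1+ against 88.9 ± 7.55 CPM for CD127+PD-1- CD8 cells (-0.76, SE 0.11, adjusted p = 0.000889). Il10ra, the IL-10 receptor chain, rose by 1.28 in CD4 (SE 0.23, adjusted p = 0.00496) and by 1.51 in CD8 cells (SE 0.21, adjusted p = 0.000697); macrophages carry this receptor too, and the myeloid sums given above were higher in the same libraries, whose part was not tested. Il2rb, the chain that IL-2 and IL-15 share, rose in CD4 cells at 334 ± 55.1 CPM for CD127-PD-1+ against 188 ± 28.2 CPM for CD127+PD-1- cells (0.83, SE 0.18, adjusted p = 0.0123). That call was lost on leaving out CD4+CD127-PD-1+ replicate 2, at an adjusted p of 0.0981, and, by less than the rounding of the threshold, without CD4+CD127+PD-1- replicate 2. Il6st, which encodes gp130, fell by 1.26 in CD8 cells (SE 0.21, adjusted p = 0.00196).

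Between the lineages the receptor chains that differed were higher in CD4 cells. Il2ra, the high-affinity IL-2 receptor chain and a STAT5 target, stood at 102 ± 39.5 CPM for CD4+CD127+PD-1- against 14.8 ± 8.43 CPM for CD8+CD127+PD-1- cells (2.78, SE 0.40, adjusted p = 0.00195). Il9r stood at 5.73 ± 0.300 CPM for CD4+CD127+PD-1- against 0.764 ± 0.434 CPM for CD8+CD127+PD-1- cells (2.89, SE 0.42, adjusted p = 0.00211), and at 10.5 ± 0.623 CPM for CD4+CD127-PD-1+ against 2.22 ± 1.05 CPM for CD8+CD127-PD-1+ cells (2.24, SE 0.40, adjusted p = 0.0132). The last of these was lost on leaving out CD4+CD127-PD-1+ replicate 2 (adjusted p = 0.0865) or CD8+CD127-PD-1+ replicate 2 (0.0539).

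Of 15 other genes linked to STAT5 in T cells, 2 rose and 3 fell in CD4+CD127-PD-1+ cells, and 5 rose and 4 fell in CD8+CD127-PD-1+ cells. Over all tested genes 6.81% rose and 4.87% fell in CD4 cells, and 9.05% rose and 6.56% fell in CD8 cells. The median log2 fold change of the 15 was 0.24 in CD4 and -0.20 in CD8 cells. Bcl2l1, which encodes the survival protein BCL-XL, rose in CD4 cells at 21.7 ± 1.62 CPM for CD127-PD-1+ against 9.40 ± 0.965 CPM for CD127+PD-1- cells (1.21, SE 0.21, adjusted p = 0.00470). In CD8 cells Bcl2l1 stood at 13.4 ± 3.13 CPM for CD127-PD-1+ against 7.71 ± 0.904 CPM for CD127+PD-1- cells. The survival gene Bcl2 ran lower, at 79.3 ± 47.9 CPM for CD4+CD127-PD-1+ against 171 ± 41.3 CPM for CD4+CD127+PD-1- cells. For CD8 cells Bcl2 stood at 94.4 ± 14.8 CPM for CD127-PD-1+ against 263 ± 42.7 CPM for CD127+PD-1- cells. Libraries of Mcl1, also on this list, overlapped between the states in each lineage. Tbx21, the gene of the type 1 factor T-bet, also rose in CD4 cells (0.77, SE 0.21, adjusted p = 0.0356). Its call was lost when any 1 of the 5 CD4 libraries was left out (adjusted p = 0.0828 to 0.134). Klf2, a factor of resting and circulating T cells, fell by 1.34 in CD4 (SE 0.24, adjusted p = 0.00558) and by 1.40 in CD8 cells (SE 0.21, adjusted p = 0.00111). Foxo1, which drives Il7r transcription, fell by 0.80 in CD4 (SE 0.13, adjusted p = 0.00276) and by 0.60 in CD8 cells (SE 0.11, adjusted p = 0.00416). In CD8 cells the repressor genes Prdm1 (1.45, SE 0.24, adjusted p = 0.00204) and Bcl6 (1.25, SE 0.21, adjusted p = 0.00224) each rose, although their proteins are known to oppose each other. In these bulk libraries it cannot be told whether the same cells carry both. The myeloid and the B and plasma cell sums given above were higher in the same libraries, whose part was not tested.

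Between lineages, Ccnd2, a D-type cyclin gene, was higher in CD4 than in CD8 CD127-PD-1+ cells (0.96, SE 0.11, adjusted p = 0.000734). Ctla4, an inhibitory receptor gene of regulatory and stimulated T cells, was higher in CD4 than in CD8 cells by 2.01 among CD127+PD-1- cells (SE 0.28, adjusted p = 0.00187) and by 1.54 among CD127-PD-1+ cells (SE 0.30, adjusted p = 0.0200). Among CD127-PD-1+ cells this call was lost on leaving out CD4+CD127-PD-1+ replicate 2 (log2 difference 1.09, adjusted p = 0.215) and on leaving out CD8+CD127-PD-1+ replicate 2 (0.0913) or 3 (0.0845), and with the CD127+PD-1- libraries kept out of the model (0.0552). Myc, which encodes a transcription factor of cell growth, was lower in CD4 than in CD8 CD127+PD-1- cells (log2 difference -1.33, SE 0.19, adjusted p = 0.00211).

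**Figure D4:**
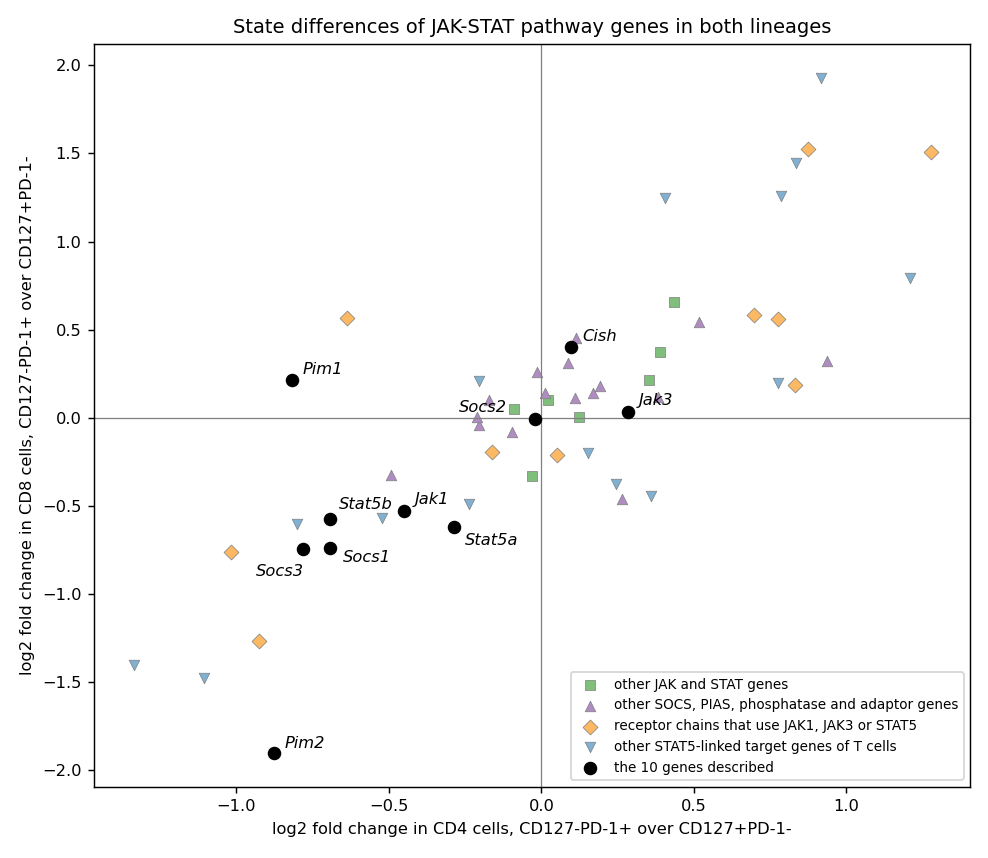
Log2 fold change of CD127-PD-1+ over CD127+PD-1- cells in CD4 cells (x axis) and CD8 cells (y axis) for the 10 genes (black, labelled) and the 4 other pathway lists (coloured; Il7r, at -4.17 and -4.51, lies outside the axes). Jak1, Stat5a, Stat5b, Socs1, Socs3 and Pim2 lie below 0 on each axis, as does Socs2, which is close to 0 (-0.02 in CD4 and -0.01 in CD8 cells). Pim1 lies at -0.82 in CD4 and 0.22 in CD8 cells.

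Over the 11 libraries the genes whose log2 CPM ran most like a called member were sought among 5581 genes of at least moderate abundance; the libraries share their groups, so the correlations are descriptions without a test. Jak1 ran most like Rpl4 (r = 0.984) and Sidt1 (0.968), and Stat5b most like Phf20l1 (0.970) and Ppp1r13b (0.964). Stat5a ran most like Brap (0.926) and Tecpr1 (0.912), and Pim2 most like Gtf2i (0.972) and Pde2a (0.969). Socs2 ran most like Cd40lg (0.983), which encodes the CD40 ligand of helper T cells, and Cd4 (0.970). Cish ran most like Hivep2 (0.974) and Nfatc2 (0.966), and Pim1 most like Rheb (0.954) and Birc3 (0.922). Within the 10, Jak1 and Pim2 (r = 0.905), Stat5a and Stat5b (0.867) and Cish and Socs2 (0.859) ran most alike, and Jak1 and Cish most opposite (-0.586).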

How the data were processed

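RNA was extracted from sorted kidney T cells, and 2 ng went into single primer isothermal amplification, read as 75-base single reads, per the labels' protocols. The deposited table holds raw read counts per gene, which the authors made with STAR and featureCounts on build GRCm38, per the submitters' processing notes. Not given in the sources used here: tool versions, annotation release and strand setting. Reads of genes on opposite strands may therefore be mixed. Of 12 count columns, 11 matched labelled samples and 1 was not used. In no pair of libraries did over 0.918% of well counted genes have equal counts.

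Counts were fitted in R 4.3.3 with edgeR 4.0.16 (filterByExpr defaults, TMM, a mean per group over all 11 libraries, glmQLFit and glmQLFTest), with Benjamini-Hochberg adjustment over 16365 genes and a threshold of 0.05. The fit was tested on simulated data, where it missed most changes of 1 on the log2 scale. A gene that was not called is not thereby shown to be unchanged. SE is the log2 fold change over the root of the F statistic, and log2 CPM used a prior count of 2. Positions, exon lengths and overlaps came from GENCODE M21 (GRCm38), which holds 45143 of the 46078 identifiers, and promoters from RefSeq (GRCm38.p6). Alternatives were DESeq2 1.42.0, limma-voom (limma 3.58.1), upper-quartile and RLE scaling, other filters, mitochondrial genes left out, compared groups only, replicate blocks, and each library left out.

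The 10 genes and the lists were chosen with earlier results of these data known. Named were all 10 members. From each other pathway list came the called genes with the 4 smallest p per state comparison and 2 per lineage comparison. A list with no called gene gave its most abundant member. Il2rg was added for its role beside Jak3. Bcl2, Mcl1, Bcl2l1 in CD8 cells and Il6st in CD4 cells were added for their levels. Likeness used Pearson's r of log2 CPM among genes with mean log2 CPM of at least 4, leaving out predicted genes, pseudogenes and antigen receptor segments. Ctla4 stands on 2 rows of the table, and the row with counts was used.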

Additional observations from a re-analysis of the deposited data

How the results depend on the processing

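The replicate numbers of the titles and of the descriptions differ, and the labels do not say whether either marks the same mice or day. Deviations of same-numbered libraries from their group means correlated at -0.21 to 0.32 for title numbers (7 of 15 pairs over 0.1). For description numbers they correlated at 0.00 to 0.33 (10 of 12). The main fit used no replicate block, and whether either number pairs the samples was not tested. With a replicate block on title numbers the state by lineage test called 0 genes and Socs3 was called in CD8 cells (adjusted p = 0.0356) and Pias2 in CD4 cells was not (0.0512); with a block on description numbers Socs3 was called in CD4 (0.00890) and CD8 cells (0.00889) and Stat5a (0.0550) and Stat2 (0.0775) in CD8 cells were not. With no filter on low counts Socs3 was called in CD4 (0.0321) and CD8 cells (0.0126).

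Among CD127-PD-1+ cells the lineage comparison called 3 of the 10 genes by DESeq2 (Jak1 and Cish beside Socs2) and 2 with no filter (Cish beside Socs2). Over all genes it called 717 by DESeq2, 791 with no filter and 214 with the compared groups only, against 400 by edgeR. Among CD127+PD-1- cells 1192 genes were called by DESeq2 and 1215 with no filter, against 723. The state by lineage test called 60 genes by DESeq2 and 85 with no filter, of which 1 was of the 10 (Pim1), against 1; it needs all groups, so no fit of the compared groups only was made. On leaving out 1 library at a time, between 1 and 4 of the 10 were called in the CD4 state comparison and between 3 and 6 in the lineage comparison of CD127+PD-1- cells. Over all genes the counts ran from 976 to 2051 in the CD4 and 1475 to 2682 in the CD8 state comparison, 126 to 443 and 378 to 764 in the lineage comparisons of CD127-PD-1+ and CD127+PD-1- cells, and 0 to 5 in the state by lineage test. The lowest counts came without CD4+CD127-PD-1+ replicate 1 (976), CD8+CD127-PD-1+ replicate 3 (1475), CD4+CD127-PD-1+ replicate 2 (126) and CD4+CD127+PD-1- replicate 3 (378). The causes were not tested.

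Signs turned only for log2 fold changes that were called in neither fit. The title block gave 0.046 for Socs2 and 0.00172 for Stat3 in the CD4 state comparison, 0.077 for Socs3 between lineages among CD127-PD-1+ cells, and 0.046 for Socs2 and 0.19 for Socs3 in the state by lineage test. The description block gave -0.00525 for Pim1 in the CD8 state comparison, 0.062 for Pim1 between lineages among CD127-PD-1+ cells, and -0.16 for Socs1 and 0.10 for Socs2 in the state by lineage test. Upper-quartile scaling, which shifted the median of all genes in the CD8 state comparison by -0.10, gave -0.061 for Jak3 there, -0.000445 for Jak3 between lineages among CD127+PD-1- cells and 0.011 for Socs2 in the state by lineage test. In the CD8 state comparison Jak3 stood at -0.000572 without mitochondrial genes and -0.00136 with no filter, and Socs2 at 0.016 by limma-voom, which gave 0.028 for Socs3 in the state by lineage test.

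Leaving out 1 library at a time, the CD4 state values ran from -0.067 to 0.57 for Jak3, -0.12 to 0.48 for Cish, -0.12 to 0.056 for Socs2 and -0.20 to 0.032 for Stat3, and the CD8 state values from -0.11 to 0.23 for Jak3 and -0.20 to 0.11 for Socs2. Between lineages they ran from -0.11 to 0.55 for Jak3, -0.36 to 0.063 for Socs3 and -0.75 to 0.14 for Pim2 among CD127-PD-1+ cells, and from -0.16 to 0.21 for Jak3 and -0.47 to 0.21 for Socs3 among CD127+PD-1- cells. In the state by lineage test they ran from -0.10 to 0.54 for Jak3, -0.29 to 0.044 for Stat5b, -0.67 to 0.075 for Cish, -0.20 to 0.39 for Socs1, -0.13 to 0.17 for Socs2 and -0.35 to 0.31 for Socs3. Of the 10 genes' values with 1 library left out, 482 kept their direction and side of the threshold. A call was gained by 1 and lost by 23 of these values, and 44 turned sign. Under the other alternatives 462 values kept their direction and side of the threshold, 11 gained and 2 lost a call and 15 turned sign. Socs1 rests on 21 to 67 counts per library, and the CD4+CD127-PD-1+ group on 2 pools.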

Other observations

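In each CD127+PD-1- population the library of replicate 3 had the highest values of Jak3, Cish, Socs1, Socs3 and Pim1, which is 5 of the 10 genes; 18.4% of the 16365 tested genes were highest in replicate 3 of both populations. In CD8+CD127+PD-1- cells alone replicate 3 was highest for 9 of the 10 genes, where 36.2% of all tested genes were. That library also had the highest sum of the 18 cell cycle genes in its population, at 1839 CPM against 742 and 642 CPM. For the CD4+CD127+PD-1- pools that sum was 663 CPM for replicate 3, against 495 and 590 CPM for the others. Cish measured 138 CPM in replicate 3 against 82.0 and 63.9 CPM in the other CD4+CD127+PD-1- libraries, and 46.9 CPM in replicate 3 against 28.7 and 21.8 CPM in the other CD8+CD127+PD-1- libraries. Il2ra, a STAT5 target outside the 10, measured 144 CPM against 95.8 and 65.7 CPM in the CD4 libraries and 24.3 CPM against 11.5 and 8.43 CPM in the CD8 libraries. The descriptions of the samples give these replicate 3 libraries the same number, 3, which replicate 2 of each CD127-PD-1+ population also carries. In CD4+CD127-PD-1+ cells that library was the higher for Jak3, Cish, Socs1 and Socs3 but not for Pim1. In CD8+CD127-PD-1+ cells it was the highest for Socs3 but not for Jak3, Cish, Socs1 or Pim1. The labels do not say whether the number marks the same mice or day. The pattern was noticed after the values were seen; neither it nor the part of the cell cycle genes in it was tested.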
